A study of Mus musculus with 3 samples.

Results

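The regions described here are the moderate peaks that all 3 antibodies share: 411 of the 7387 peaks found with the antibody to homocysteinylated lysine 79 of histone H3 (H3K79Hcy). They were chosen by measured values. Each overlapped by at least 1 bp a peak of the antibody to homocysteinylated lysine (KHcy) and a peak of the antibody to trimethylated lysine 4 of histone H3 (H3K4me3), and its fold over background did not exceed 5. The fold is the number of reads in a peak divided by the background reads expected over the same length, at 1.592 reads per 200 bp window for H3K79Hcy. With the limit on fold alone, 7185 H3K79Hcy peaks qualified, of which 12.2% overlapped a KHcy peak, 13.6% an H3K4me3 peak and 5.72% both. These percentages follow from the rule and describe the selection.

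The ChIP-seq libraries came from NE4C cells, an established mouse neural stem cell line, grown without added homocysteine thiolactone (HTL). There was 1 library for each antibody, labelled H3K79Hcy, Hcy (titled Khcy) and H3K4me3, and all 3 came from the same line under the same culture condition. No library was repeated, so no spread between replicates and no test could be given, and the 95% intervals below cover counting error only. Such a cloned line stands for neural stem cells in culture, not for the neural tube. All positions are in the mouse genome mm9.

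Homocysteine is an amino acid of the methionine cycle, and its reactive thioester HTL can attach to the side chain of lysine, in histones as in other proteins. Lysine 79 lies on the surface of the nucleosome core and is better known as a site of methylation in transcribed genes. H3K4me3 is the textbook mark of active gene starts, and was used in the study as a reference for the homocysteine marks. A region where peaks of all 3 antibodies meet is one in which their 3 signals can be read side by side. Overlap with an H3K4me3 peak does not by itself make such a region a promoter.

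The H3K4me3 list departed from that textbook pattern. Of its 19339 peaks, 5.71% covered the start of a protein-coding gene (95% interval 5.40 to 6.05), and 5.42% of all gene starts lay in a peak. The corresponding shares of peaks were 2.79% for KHcy and 1.19% for H3K79Hcy. Median folds were low in all 3 lists, at 2.70 for H3K79Hcy, 2.25 for KHcy and 2.59 for H3K4me3, with 209335, 276864 and 787308 reads in peaks. The total reads of the libraries are not known from the lists, and input DNA was not analysed here, so the read density of these regions in chromatin that was not immunoprecipitated is unknown.

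By the lowest of their 3 folds, the 10 leading members lay on chromosomes 1, 4, 5, 7, 8 and X. The first of them held 150 H3K79Hcy reads (fold 4.96, 95% interval 4.20 to 5.82), its KHcy partner had a fold of 5.33 (4.83 to 5.87) and its H3K4me3 partner a fold of 9.06 (8.51 to 9.63). It lay between genes at chr5:14883401-14887200, and 4 of the 10 came from the same part of chromosome 5. The third, at chr7:7230601-7231200, was a lone region with only 23, 31 and 33 reads in the 3 libraries. Its folds of 4.82 (3.05 to 7.23), 5.22 (3.54 to 7.40) and 5.97 (4.11 to 8.39) were not separable at this depth. Sequences of mm9 are shown for these 2 regions, because they differ in base composition: up to 200 bases from the middle of the interval common to the 3 peaks, in lower case, with CG dinucleotides, the sites of DNA methylation, in capitals.
The first region, chr5:14885201-14885400, plus strand: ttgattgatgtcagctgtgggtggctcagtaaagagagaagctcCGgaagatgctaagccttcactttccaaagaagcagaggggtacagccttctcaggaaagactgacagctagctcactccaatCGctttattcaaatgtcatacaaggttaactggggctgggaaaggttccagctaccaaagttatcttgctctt
The third region, chr7:7230701-7230900, plus strand: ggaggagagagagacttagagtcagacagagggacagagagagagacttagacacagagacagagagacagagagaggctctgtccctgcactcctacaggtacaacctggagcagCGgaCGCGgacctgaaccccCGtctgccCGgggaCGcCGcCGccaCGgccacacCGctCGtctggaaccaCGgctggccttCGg
The sequence of the third region held 13 CG dinucleotides in 200 bases and a GC content of 63.0%, whereas that of the first held 2 and had a GC content of 46.5%. Of the whole peaks, 12.4% of the 31-base words in the first and 32.3% in the third occurred elsewhere in the genome as well. A read no longer than such a word cannot be assigned to a single place, but a longer read may be. The read length is not known from the lists, and the part of this in the folds was not tested.

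Some of the other leading members lay in genes. Mid1, which encodes a microtubule-associated ubiquitin ligase, held an intronic member at chrX:166432401-166434000 with folds of 4.87, 4.37 and 5.36 in H3K79Hcy, KHcy and H3K4me3. Atp6v1h, which encodes a subunit of the vacuolar proton pump, held one at chr1:5099001-5099800 with folds of 4.40, 5.72 and 6.08. Gm13242 on chromosome 4 held one with folds of 4.89, 4.47 and 7.50. At the other end of the list the smallest H3K79Hcy fold was 1.96, and the member nearest to the limit had 4.96 while 3 peaks shared by all antibodies fell just outside it at 5.03.

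The H3K4me3 fold was the highest of the 3 in most members. The median fold was 3.30 for H3K79Hcy (range 1.96 to 4.96), 2.92 for the KHcy partner (1.71 to 8.41) and 3.81 for the H3K4me3 partner (1.91 to 15.9). H3K4me3 had the highest of the 3 folds in 272 members (66.2%), H3K79Hcy in 109 (26.5%) and KHcy in 30 (7.30%). In the members with no other member within 100 kb, described below as single members, the order was less clear, with H3K4me3 highest in 43 and H3K79Hcy in 41 of 96. Counting error limits this order within single regions: the Poisson intervals of H3K4me3 and H3K79Hcy overlapped in 354 of the 411 members. In the other 57 the H3K4me3 interval lay above. It lay above that of KHcy in 109 members (26.5%). For KHcy and H3K79Hcy they overlapped in 408 members, so the general and the site-specific homocysteine antibody were not separable in nearly all of these regions. The rule limited the fold of H3K79Hcy and not that of its partners, which bears on this order. Partner folds are means over whole partner peaks, of median length 2400 bp for KHcy and 3400 bp for H3K4me3, against 1400 bp for the members.

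Over all members, median partner folds were higher than in peaks shared by 2 antibodies. Among the 467 H3K79Hcy peaks that met KHcy alone, the KHcy fold had a median of 2.24, against 2.92 in the members. Among the 568 that met H3K4me3 alone, the H3K4me3 fold had a median of 2.69, against 3.81. Members in stretches of at least 5, described below, had KHcy and H3K4me3 partner medians of 3.14 and 4.60. The 64 single members with under 10% repeated words had 2.32 and 2.73, close to the peaks shared by 2 antibodies. The H3K79Hcy fold itself was also higher in members, at a median of 3.30 against 2.69 (KHcy alone) and 2.76 (H3K4me3 alone). Across the members the folds rose together, with a Spearman rank correlation of 0.551 between H3K79Hcy and KHcy, 0.559 between H3K79Hcy and H3K4me3, and 0.670 between KHcy and H3K4me3. In the peaks shared by 2 antibodies it was 0.155 with KHcy and 0.177 with H3K4me3. These values are descriptions across regions of the same 3 libraries, and neighbouring members often shared a partner peak: 60 H3K4me3 peaks held at least 2 members each, 158 members in all.

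Overlap with both other lists became more common as the H3K79Hcy fold grew. It was found in 1.43% of the peaks with a fold up to 2.5 (31 of 2169), 12.2% of those between 3 and 3.5, 27.5% of those between 4 and 5 (63 of 229) and 95.7% above 10 (45 of 47). Long peaks were also shared more often, at 43.3% of those over 2000 bp and 4.56% of those up to 600 bp. A long peak can meet another by its length alone, and the part of length was not tested separately.

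**Figure D1:**
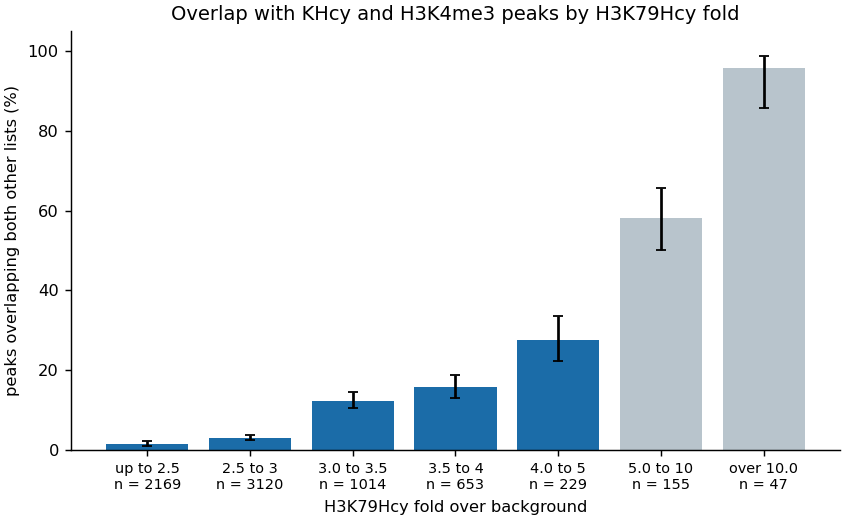
Share of H3K79Hcy peaks that overlapped a KHcy and an H3K4me3 peak (y axis, percent) by H3K79Hcy fold (x axis), with 95% Wilson intervals and the number of peaks per bin. Blue bars hold the members described here and grey bars the peaks over the limit, and the share grew from 1.43% to 95.7%.

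The 3 peaks of a member usually covered the same bases. In 409 members a stretch of sequence was common to all 3, with a median length of 1000 bp beside a median H3K79Hcy peak of 1400 bp. The KHcy partner covered the whole H3K79Hcy peak in 240 members and the H3K4me3 partner in 289. A stricter score, higher than the lowest of each list by the natural log of 100, was reached in all 3 lists by 259 members (63.0%).

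Most members sat in runs on the chromosome. When members no more than 100 kb apart were joined, a distance set after the data had been seen, 19 stretches held at least 5 members each and 229 in all (55.7%). Another 33 stretches of 2 to 4 held 86, and 96 members (23.4%) stood alone. The 19 stretches covered 2079.4 kb. Peaks of H3K79Hcy, KHcy and H3K4me3 covered a median of 28.8%, 34.8% and 54.6% of their length, and 0.8%, 1.3% and 6.2% of the 100 kb on each side. This contrast is in part built in, since the stretches were drawn around members. The 6 largest held 138 members.

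**Figure D2:**
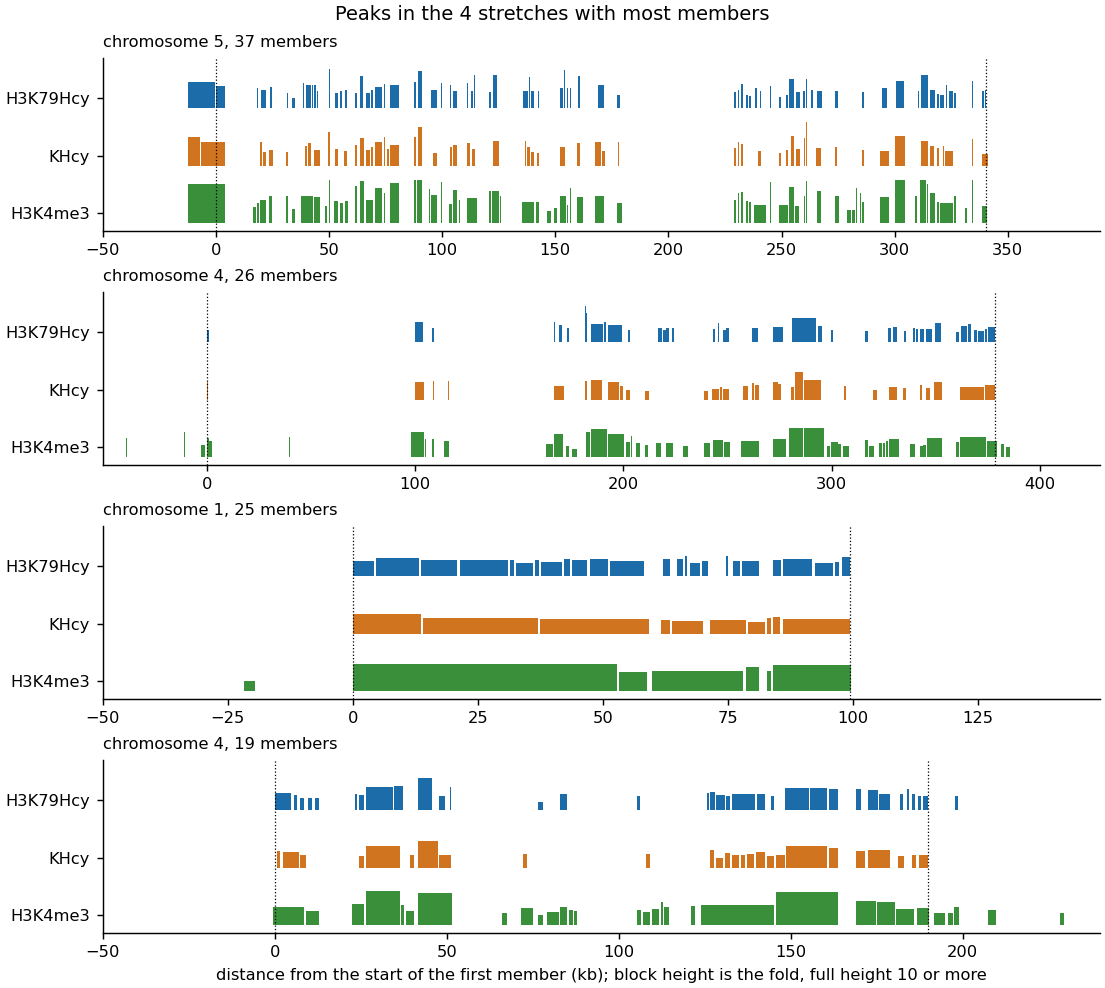
All peaks of the 3 libraries in the 4 stretches with most members, by distance from the start of the first member (x axis, kb), with the height of a block showing its fold up to 10. Dotted lines mark the ends of each stretch, and on chromosome 1 the blocks of all 3 libraries begin and end together over 99.4 kb.

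Among the 19 stretches, peaks covered the largest share of the one at chr1:90108001-90207400, from the end of the Ugt1a cluster into the first part of Trpm8. All 25 H3K79Hcy peaks there were members, with folds from 3.02 to 4.71. Peaks covered 78.7% of the span in H3K79Hcy, 93.2% in KHcy and 96.0% in H3K4me3, and in the flanks 0%, 0.7% and 2.1%. A single H3K4me3 peak of 52800 bp, with 2243 reads and a fold of 6.15, was the partner of 11 of the members. This region was not repetitive, with a median of 0.420% repeated words. It holds the shared 3′ part of 9 Ugt1a genes, which encode enzymes that conjugate bilirubin and drugs with glucuronic acid. Next to them lie Heatr7b1 (a HEAT-repeat gene, named Mroh2a in RefSeq), Hjurp, whose product places the centromeric histone CENP-A, and Trpm8, the cold- and menthol-activated channel of sensory neurons.

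Trpm8 held 11 members, Heatr7b1 9 and Hjurp 4. Their median H3K79Hcy folds were 3.56, 3.61 and 3.85, and their median H3K4me3 folds 5.46, 6.15 and 4.62. Within Heatr7b1 the H3K79Hcy folds ranged only from 3.10 to 3.98. Peaks of all 3 antibodies ran through Heatr7b1 and Hjurp and across the borders between the genes. The stretch ended at chr1:90207400, inside Trpm8, which continues to chr1:90285868. The sequence of the Trpm8 member with the largest lowest fold is shown from an intron of the gene, with CG in capitals.
Trpm8 intron, chr1:90192601-90192800, plus strand: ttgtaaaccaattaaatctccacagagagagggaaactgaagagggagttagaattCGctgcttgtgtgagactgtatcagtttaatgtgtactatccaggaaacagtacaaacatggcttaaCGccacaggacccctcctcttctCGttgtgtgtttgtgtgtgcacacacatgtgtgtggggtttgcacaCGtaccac
It held 4 CG dinucleotides in 200 bases, and the whole peak (chr1:90192001-90193600) had 47 H3K79Hcy reads. Its partner peaks, each counted over its own length, had 39 KHcy and 646 H3K4me3 reads.

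Another compact stretch of low repetition lay at chr1:173444001-173511800, over Gm9765, Itln1 and Cd244. Of its 17 H3K79Hcy peaks 15 were members, and its members had a median of 3.16% repeated words. Median folds were 3.66 in H3K79Hcy, 3.47 in KHcy and 4.85 in H3K4me3. Cd244, which encodes a receptor of natural killer cells, held 7 members, and Itln1, which encodes a lectin that binds microbial sugars, held 3.

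Another stretch on chromosome 1 had its highest median fold in H3K79Hcy. At chr1:175853201-175913000 it spanned Mndal, Ifi203 and Ifi202b, interferon-inducible genes of a single family. The median H3K79Hcy fold of its 7 members was 3.41 and the KHcy fold 3.33, while the H3K4me3 fold was 2.81. Ifi202b held 4 of these members. The Poisson intervals of the member at its start, 1.86 to 4.11 for H3K79Hcy and 2.15 to 3.60 for H3K4me3, overlapped. Some stretches on other chromosomes also had H3K79Hcy highest, such as chr13:12990601-13024600, with median folds of 3.14, 2.37 and 2.88 in H3K79Hcy, KHcy and H3K4me3.

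Repetition was high in several of the large stretches. The largest, chr5:14883401-15224000, held 37 members and 31 peaks over the fold limit. Its members had 71.4% repeated words, with median folds of 3.93, 3.89 and 5.37 in H3K79Hcy, KHcy and H3K4me3. It includes Speer4e, Speer4d and Speer4c, spermatogenesis-associated genes, and Gm9758 and Gm10354. On chromosome 3, 16 members at chr3:93569401-93633200 surrounded Gm5773, Tdpoz3 and Tdpoz4, genes with a POZ domain. On chromosome 8, 11 members at chr8:19893601-20033600 had 82.1% repeated words, and none of them lay in a protein-coding gene. By contrast, 5 of the 19 stretches had a median under 5%, among them that of Krt78, a keratin gene (chr15:101778601-101797800, 5 members, 0%) and that of Bspry, Hdhd3 and Alad (chr4:62156001-62182000, 5 members, 1.45%).

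Chromosome 4 carried 3 stretches of at least 10 members. Stretches of 26 members (chr4:146609001-146987600), 19 members (chr4:144994801-145184600) and 10 members (chr4:145663401-145770200) had 34.6%, 46.1% and 24.6% repeated words. Gm13242 held 14 members, more than any other gene, with median folds of 3.65 in H3K79Hcy, 3.27 in KHcy and 4.71 in H3K4me3. RefSeq names it Zfp980. Of the 85 genes with a member, 82 matched 1 RefSeq symbol of the GRCm38.p6 table. Other genes of these stretches also have Zfp names there: Gm13154 (Zfp985, 5 members), Gm13247 (Zfp981, 4), Gm13152 (Zfp982, 2) and 2610305D13Rik (Zfp979). Gm13225 and Gm13212 held 4 members each. Zfp genes encode proteins with zinc fingers, a fold that often binds DNA. Whether such genes are more common among members than elsewhere was not tested. Reads from the repeated words of these stretches may fit more than 1 place, and the part of this in the folds was not tested.

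Members were unevenly spread over the chromosomes. Chromosome 4 held 69 members (16.8%) and 1.98% of the other peaks with a fold up to 5, and 34.0% of its peaks of that fold were members. Shares as high came from few peaks on chromosomes 16 (45.0%, 9 members), X (41.7%, 5 members) and 7 (34.5%, 19 members). The share was 4.54% on chromosome 1 (60 members) and 1.82% on chromosome 2 (14 members). The 5 chromosomes with most members, 4, 5, 1, 6 and 8, held 64.7% of the members, 63.8% of the peaks that met KHcy alone, 61.8% of those that met H3K4me3 alone and 47.4% of those that met neither list, so this share was not particular to the members. The lists themselves were uneven in all 3 libraries: chromosome 2 held 781 H3K79Hcy, 828 KHcy and 1747 H3K4me3 peaks, and chromosome 7 held 58, 45 and 510. The unevenness bears on the share per chromosome, and its source was not tested.

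Most members lay between genes. The centre of 31.1% of members (128 of 411, 95% interval 26.9 to 35.8) lay in a protein-coding gene, against 41.2% of the other peaks with a fold up to 5 (40.0 to 42.3). The H3K79Hcy peaks that met H3K4me3 alone had 31.2% in a gene (27.5 to 35.1), like the members, and those that met KHcy alone 47.8% (43.3 to 52.3). With all annotated genes the intervals of members, 39.4% (34.8 to 44.2), and of the others, 43.1% (41.9 to 44.3), overlapped. Among peaks with under 10% repeated words the share was 48.1% of 181 members and 43.0% of the others. No interval was given for these 2 shares, so a reversed order is not shown. Introns held 26.3% of the members and 37.6% of the others, and the space between genes 64.2% and 57.0%. Of the 22380 protein-coding genes of GENCODE M1, 85 had a member in the body, or 0.38%. In 52 of them it was a single member. Genes with a member were longer, with a median of 33.4 kb against 15.4 kb for the rest, and the 9 Ugt1a genes among the 85 share the same 2 members. A longer gene body can meet any peak more easily. Lengths were not compared with those of genes that hold other H3K79Hcy peaks.

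A gene start was covered by 4.38% of members (18 of 411, 2.79 to 6.82) and by 0.782% of the other peaks with a fold up to 5 (0.599 to 1.02). Members were chosen for meeting an H3K4me3 peak, and among peaks that met H3K4me3 alone the share was 1.94% (1.08 to 3.43), an interval that overlapped that of members. Among the shared peaks over the limit it was 10.4% (6.28 to 16.7). Within the same range of H3K79Hcy fold, from 3 to 4, the shares were 3.98% (2.11 to 7.39) and 0.833% (0.477 to 1.45). Members of that range were also longer, with a median of 1400 bp against 800 bp, so that a start could fall in them more easily. The 18 starts belonged to 18 genes. By H3K4me3 fold the first were Gm10807 (9.09), Gm10354 (6.46), Gm9758 (6.16), Heatr7b1 (6.15) and Ugt1a1 (6.15), which lie in stretches. Gm10807 lies on chromosome 10 in a stretch of 3 members that also spans Dux, the factor that turns on genes of the early embryo, and its member had 75.4% repeated words. Itln1 (5.51), Gm9765 (5.41), Cd244 (4.85), Gm5773 (4.62), Gm454 (4.03), Hist4h4 (3.86), Gm6020 (3.76), Gm13157 (3.52), Sox17 (3.41) and Alad (3.09) followed. The list ended with Hoxb6 (3.03), Ifi202b (2.81) and Kat5 (2.50).

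**Figure D3:**
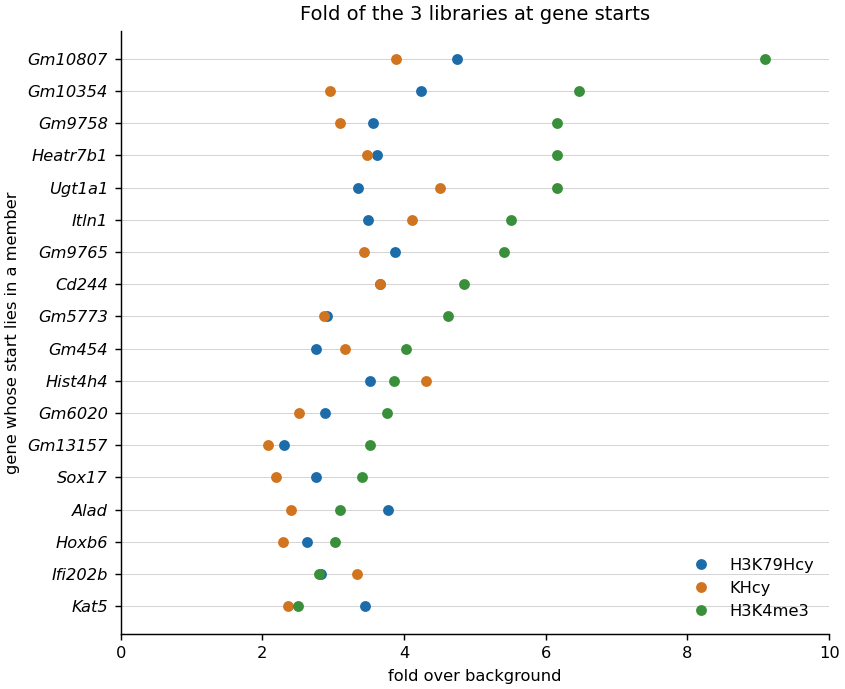
Fold over background (x axis) of H3K79Hcy, of its KHcy partner and of its H3K4me3 partner for the 18 genes whose start lay in a member, ordered by H3K4me3 fold. H3K4me3 is the highest of the 3 at most starts, while H3K79Hcy is the highest at Alad and Kat5.

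At 3 of the 18 starts, those of Alad, Kat5 and Ifi202b, the H3K79Hcy fold was above the H3K4me3 fold, at Ifi202b by 2.83 to 2.81. Alad, which encodes an enzyme of heme synthesis, had 36 H3K79Hcy reads (fold 3.77, 2.64 to 5.22), 57 KHcy reads (2.40, 1.82 to 3.11) and 94 H3K4me3 reads (3.09, 2.50 to 3.79). Kat5, which encodes the histone acetyltransferase of the NuA4 complex, had 22 (3.45, 2.17 to 5.23), 35 (2.36, 1.64 to 3.28) and 38 reads (2.50, 1.77 to 3.43). At Alad and Kat5 the intervals of H3K79Hcy and H3K4me3 overlapped. At Ugt1a1 H3K79Hcy had a fold of 3.35 (2.76 to 4.03) and the H3K4me3 partner 6.15 (5.90 to 6.41). That partner is the peak of 52800 bp, so its fold and narrow interval do not give the H3K4me3 level at the start itself. All KHcy and H3K4me3 values here are those of whole partner peaks.

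Some of the members that stood alone were rich in CG. Of the 96, 19 had at least 20 CG dinucleotides per kb (19.8%, 13.1 to 28.9), against 3.06% of members in the large stretches (1.49 to 6.17), 2.64% of the other peaks with a fold up to 5 (2.29 to 3.05) and 28.1% of the shared peaks over the limit (21.2 to 36.3). The other 77 had a median GC content of 41.3%, close to the 40.8% of the large stretches. These limits, and the genes named from them, were chosen after the values had been seen. Of these 19 CG-rich members, 13 overlapped a protein-coding gene, beside 21 of the other 77. A gene start lay within 1000 bp of 11 of the 19, and of 0 of the 77. Repetition was under 10% in 18 of the 19.

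The genes at the CG-rich single members are described one by one, and no shared function was tested. Sox17 specifies endoderm and vessels, and Hoxb6 patterns the body axis. Nr2e1 keeps neural stem cells dividing, Tlx1 is a homeobox gene needed for the spleen, Prdm12 acts in pain-sensing neurons, Foxb2 is a forkhead factor and Skor1 a corepressor of spinal interneurons. Reads were counted over the whole length of each peak. The partner peaks at Nr2e1, Tlx1 and Skor1 were longer than the members, so their read counts cannot be set against each other. At Nr2e1 the 3 peaks had 33 H3K79Hcy, 33 KHcy and 219 H3K4me3 reads and folds of 2.59, 1.71 and 2.99. At Tlx1 they had 33, 36 and 167 reads and folds of 2.96, 2.42 and 3.02, and at Skor1 25, 33 and 102 reads and folds of 2.24, 2.02 and 2.84. Prdm12 had folds of 2.78, 2.32 and 2.85, and Foxb2 of 2.04, 3.36 and 3.06. Across the 19, the median folds were 2.78, 2.31 and 3.02, lower in each library than the medians of 3.53, 3.14 and 4.60 in the large stretches. The other 77 single members had 3.06, 2.63 and 2.85. Beside those, the 19 were lower in H3K79Hcy and KHcy and higher in H3K4me3.

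Kat5 is given above. Cdkn1b, an inhibitor of the cell cycle, had folds of 3.98 in H3K79Hcy, 2.31 in KHcy and 2.62 in H3K4me3. Fkbp4, a chaperone of steroid receptors, had 2.51, 2.06 and 2.90, and Ntng2, a netrin-like guidance protein, 3.30, 2.27 and 3.06. C230081A13Rik had 2.62, 3.10 and 3.80. Hist4h4, a histone H4 gene, had 3.52, 4.31 and 3.86 from 28, 32 and 32 reads. The sequences below are from the middle of the interval common to the 3 peaks at Nr2e1, Hist4h4 and Kat5 and show how the CG dinucleotides, in capitals, are packed there.
Nr2e1 intron, chr10:42300301-42300500, plus strand: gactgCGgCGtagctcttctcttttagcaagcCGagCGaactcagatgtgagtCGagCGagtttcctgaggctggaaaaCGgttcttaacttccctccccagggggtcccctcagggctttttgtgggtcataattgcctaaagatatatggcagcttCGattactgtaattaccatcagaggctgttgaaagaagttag
Hist4h4 upstream of the start, chr6:136752901-136753100, plus strand: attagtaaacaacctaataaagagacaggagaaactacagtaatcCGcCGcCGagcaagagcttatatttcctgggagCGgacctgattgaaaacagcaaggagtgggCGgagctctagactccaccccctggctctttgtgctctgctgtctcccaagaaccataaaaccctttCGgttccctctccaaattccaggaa
Kat5 upstream of the start, chr19:5610101-5610300, plus strand: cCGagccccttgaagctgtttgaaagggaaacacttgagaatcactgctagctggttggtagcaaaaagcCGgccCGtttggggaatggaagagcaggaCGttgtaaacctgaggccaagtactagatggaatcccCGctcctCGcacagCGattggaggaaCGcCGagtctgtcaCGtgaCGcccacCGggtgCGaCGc
The Kat5 sequence held 14 CG dinucleotides in 200 bases, that of Nr2e1 8 and that of Hist4h4 6, beside 4 in the Trpm8 sequence above.

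One CG-rich single member lay over a cluster of microRNAs. At chr7:3218801-3219800 it overlapped Mir291a, Mir292 and Mir291b, which belong to a cluster known from embryonic stem cells and early embryos. It had 23 H3K79Hcy reads (fold 2.89), 44 KHcy partner reads (2.69) and 46 H3K4me3 partner reads (3.70). None of its 31-base words was repeated. Its middle 200 bases follow, with CG in capitals; they begin with the DNA form of miR-292a-5p. After them stand the mature microRNAs as RefSeq gives them for GRCm38.p6, with the seed in capitals, since the seed decides which messages a microRNA binds.
Mir292 and the bases after it, chr7:3219201-3219400, plus strand: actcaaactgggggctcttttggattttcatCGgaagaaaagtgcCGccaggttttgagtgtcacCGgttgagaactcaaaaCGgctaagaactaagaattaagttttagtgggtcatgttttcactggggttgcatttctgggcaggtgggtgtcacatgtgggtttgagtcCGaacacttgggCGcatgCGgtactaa
mmu-miR-291a-5p: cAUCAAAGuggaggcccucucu
mmu-miR-291a-3p: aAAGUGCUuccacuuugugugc
mmu-miR-292a-5p: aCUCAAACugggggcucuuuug
mmu-miR-291b-5p: gAUCAAAGuggaggcccucucc
mmu-miR-291b-3p: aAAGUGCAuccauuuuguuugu
The 5p forms of Mir291a and Mir291b share their seed, and their 3p forms have different seeds. The 3p form of Mir292 is named only. The peak lists do not show whether these microRNAs are made in NE4C cells.

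**Figure D4:**
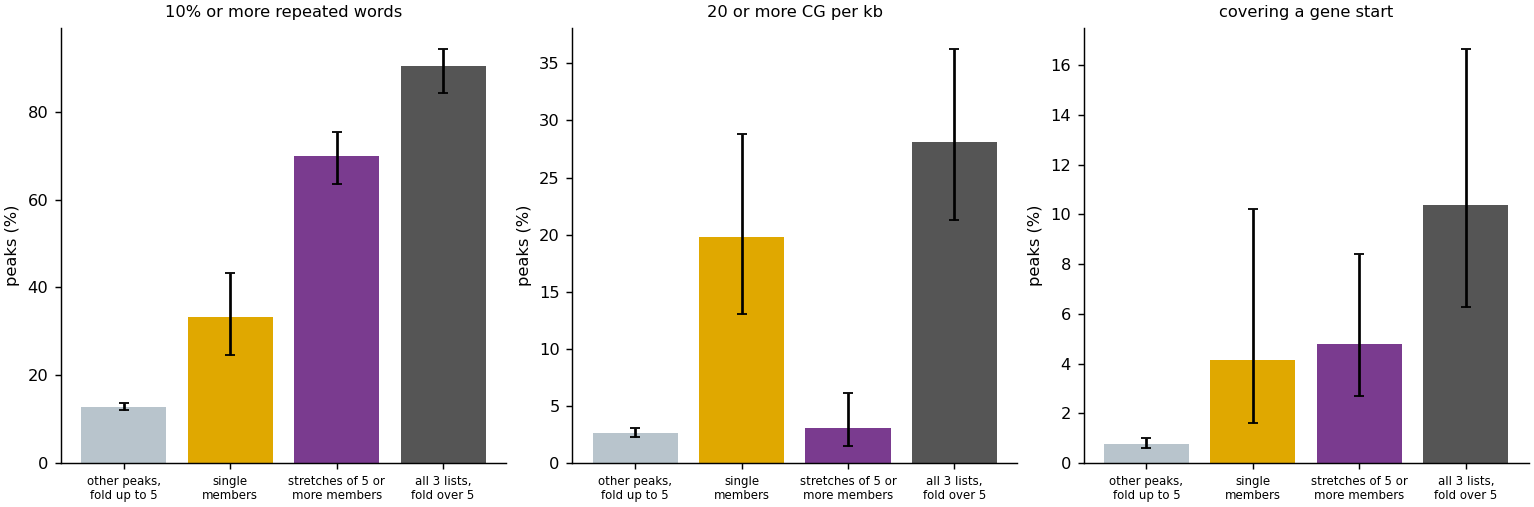
Share of peaks (y axis, percent) with at least 10% repeated 31-base words (left), with at least 20 CG per kb (middle) and covering a gene start (right), with 95% Wilson intervals, for other peaks with a fold up to 5, single members, members in stretches of at least 5, and shared peaks over the limit. Of single members 19.8% were rich in CG, and of members of large stretches 69.9% were repetitive.

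Repetition was higher in members as a whole than in the other peaks with a fold up to 5. At least 10% of the words were repeated in 56.0% of members (51.1 to 60.7) and in 12.8% of the other peaks with a fold up to 5 (12.0 to 13.6). The median was 14.4% and 0.513%. With the H3K79Hcy fold between 3 and 4 the medians were 22.2% and 0%, and between 4 and 5 they were 34.6% and 0%. Peaks with a fold up to 3 were not compared in this way. The medians of large stretches and single members were 31.7% and 2.52%. Peaks that met H3K4me3 alone had a median of 2.63%, close to that of single members, and those that met KHcy alone 0.461%. Among the shared peaks over the limit, which continue the series upwards, the median was 48.6%. The GC content was close in all groups, at 41.3% in members and 40.3% in the others.

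Short DNA words gave few contrasts. In the middle 1000 bp, the GC box GGGCGG, counted on both strands, was found in 21.9% of single members (14.8 to 31.1), 3.95% of members in large stretches and 4.95% of the other peaks with a fold up to 5. The E-box CAGCTG was found in 33.9% of members and 31.4% of the others, and the octamer ATGCAAAT in 9.02% and 7.90%. These counts describe letters in a window and not the binding of a factor.

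The gene lists drawn up for the tissue held almost no members. Of 56 genes of neural tube closure, 12 had an H3K79Hcy peak with a fold up to 5 and 0 a member, which allows a share of up to 6.42% by the Wilson interval. Among 98 chromatin regulators only Kat5 held one, among 63 axon guidance genes only Ntng2, and among 56 genes of synaptic and neuronal adhesion only Cntnap4. Cntnap4, a contactin-associated adhesion protein, held 2 members with a median H3K79Hcy fold of 2.47. Hoxb6 was the only one of 40 Hox genes, and Zfp872 the only one of 374 genes that the annotation itself calls Zfp. No member was found in the lists for cadherins and catenins, ion channels and transmitter receptors, Wnt signalling, Notch, Hedgehog, BMP and FGF signalling, neural stem and forebrain identity, one-carbon and homocysteine metabolism, cytosolic ribosomal proteins, olfactory receptors and vomeronasal type 1 and type 2 receptors. Nr2e1 was not in the list for neural stem identity and is named above from its CG content. Over all genes the share was 0.38%, and nothing is read from these counts about any single list.

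The genes followed up in the study were not among the members. Smurf2 held 2 H3K79Hcy peaks of any fold and Cecr2 5, of which 1 each overlapped a KHcy peak and 0 an H3K4me3 peak. Dnmt3b and Smarca4 held 1 each, and these overlapped neither list.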

How the data were processed

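Peak lists were analysed for 3 ChIP-seq libraries of untreated NE4C cells, 1 per antibody (H3K79Hcy, KHcy and H3K4me3). Reads were mapped by the authors on mm9 using Bowtie 2, and peaks were called with MACS (version 1.4.2 in the submitters' processing notes), filtering through control input. A figure legend names SICER as the caller, and every deposited peak is a multiple of 200 bp long. The columns next to the reads hold no value, so no filtering against input can be seen in the lists. The lists differ in length from the peak numbers given in the study, whose number for H3K79Hcy is nearer to the length of the KHcy list here. Lists were taken by their labels. The authors deposited for each peak its position, length and the count of reads in it, which is not normalized, and a score. For the shortest peaks this deposited score is minus the natural log of the Poisson probability of the reads, given a constant background in each library.

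That background was recovered from 27, 8 and 14 peaks 1 window long (1.592, 1.49 and 1.38 reads per window), and the fold is the reads over that background for the same length. The partner of a member is the peak of the other list with the longest overlap. Genes were taken from GENCODE M1 and sequence from NCBIM37, the same build as mm9. A peak was placed by its centre: within 2000 bp upstream of a gene start, within 1000 bp downstream of a gene, in an exon or intron, or between genes. Words of 31 bases were counted on both strands of the whole genome. Shares carry Wilson and folds exact Poisson intervals (95%, counting error only).

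The members and lists were chosen with earlier results of these data known. Named by rule were the 10 members with the largest lowest fold, the 10 genes with most members, genes whose start lay in a member (up to 15), list genes with a member, and Smurf2, Cecr2, Dnmt3b and Smarca4. The last 3 gene starts, stretches, CG-rich members and their genes and the microRNAs were named after their values had been seen. Alternatives were a stricter score, overlap of at least 50%, a fold of at most 4, members within 3000 bp counted once, under 10% repeated words, all annotated genes, and gene starts within 1000 bp. Overlap, background and word counts were tested on simulated data. The tools were Python 3.11.15, pandas 2.3.3, numpy 2.4.6, scipy 1.17.1 and pysam 0.24.0. Input, IgG, HTL-treated and RNA-seq libraries were not analysed here.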

Additional observations from a re-analysis of the deposited data

How the results depend on the processing

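No paired analysis was possible because each antibody had 1 library. For the same reason no replicate could be left out. Of 78 values under alternatives for 11 results, 43 stayed within the counting interval of the reported value (for counts, within 1.5 times) and 35 moved. With all 3 lists reduced to the stricter score first, so that a member could meet any remaining peak and not only its partner, the members numbered 262, the KHcy and H3K4me3 folds of partners were 3.04 and 4.20, repeated words 22.9% and genes 55. With an overlap of at least 50%, 100% of members held a common interval. With a fold of at most 4 the H3K4me3 fold was 3.57. With members within 3000 bp counted once there were 264, with folds of 2.84 and 3.47. With under 10% repeated words 181 members were left, with folds of 2.75 and 3.04, the stricter score in 53.0%, a gene body in 48.1% and a GC content of 42.9%. Under that filter 43.0% of the other peaks with a fold up to 5 lay in a gene body, so the lower share of members was not kept. Without intervals a reversed order is not shown. A gene start was covered by 4.97% of members against 0.847% of the other peaks. All annotated genes gave 39.4% of members and 43.1% of the other peaks in a gene body, and 128 genes, and starts within 1000 bp gave 8.03%.

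A pair of alternatives was chosen after seeing the data. The 96 members that stood alone had folds of 2.47 and 2.90, a common interval in 97.9%, the stricter score in 37.5%, 46.9% on the 5 chromosomes, a GC content of 42.3%, 2.52% repeated words and 34 genes. Without the 6 largest stretches 273 members had folds of 2.69 and 3.09, the stricter score in 54.2%, a gene body in 26.7%, 52.7% on the 5 chromosomes and 9.47% repeated words. With 14 to 416 H3K79Hcy reads per member, the counting intervals of the folds overlapped in 408 of the 411 members for H3K79Hcy and KHcy, 354 for H3K79Hcy and H3K4me3 and 302 for KHcy and H3K4me3.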
